A study of Mus musculus with 3 samples.

Results

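The genes described here are 10 genes of lipid uptake, lysosomal cholesterol release, storage and cholesterol efflux, chosen by name from the 23860 genes counted in the liver cells of mice. They are the receptors Cd36, Msr1 and Scarb1, the lysosomal proteins Lipa and Npc2, the esterification and storage genes Soat1 and Plin2, and the efflux genes Abca1, Abcg1 and Apoe. Their levels are given in Kupffer cells (KCs), a cluster of other macrophages that carry C1q genes (C1q macrophages), monocytes, endothelium and hepatocytes, separately for each of 2 single-cell libraries. The study isolated non-parenchymal cells, the liver cells other than hepatocytes, and captured them with the BD Rhapsody system. In it each cell's transcripts are tagged with unique molecular identifiers (UMIs), so that UMIs count molecules. One library is assigned to wild-type (WT) C57BL/6 J mice on a normal chow diet (NCD), and is called the NCD library. It was identified by elimination, since its title reads MCD, its file header names it APAP0h and the study's text calls it NCD. The other holds WT mice and Chi3l1-/- mice (Chil1-/- in the label), a constitutive knockout, together on a high-fat, high-cholesterol (HFHC) diet, and is called the HFHC pool. No genotype of its single cells was used here, and neither the number and age of the mice nor the feeding time is given in the labels. With 1 library per diet there is no test between diets, and diet, genotype mixture, capture and library cannot be told apart.

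Macrophages and endothelial cells take up modified lipoproteins and fatty acids through scavenger receptors such as CD36, MSR1 and SR-BI. Cholesteryl esters that reach the lysosome are cleaved by lysosomal acid lipase, and the free cholesterol is passed on by NPC2 and NPC1. In the cytoplasm, excess cholesterol is esterified again by ACAT1, the product of Soat1, and is stored in lipid droplets coated by perilipin 2. Cholesterol leaves the cell through the transporters ABCA1 and ABCG1 to apolipoprotein acceptors, of which macrophages and hepatocytes secrete apolipoprotein E themselves. Oxysterols that build up with cholesterol activate the nuclear receptor LXR, which is known to induce Abca1, Abcg1 and, in macrophages, Apoe, whereas fatty acids acting on PPARs are known to induce Plin2 and Cd36. Loading of macrophages through this route is what makes foam cells in arteries and lipid-laden macrophages in steatotic liver.

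The promoters of Abca1, Plin2 and Lipa are shown because Abca1 and Plin2 were the genes most often 2-fold apart between the libraries, and Lipa differed in the same direction in the 3 myeloid classes. Each run is the 250 bases before the start of a RefSeq transcript of the mouse build GRCm38.p6, read in the direction of the gene. They lie at chr4:53159896-53160145 (Abca1), chr4:86670060-86670309 (Plin2) and chr19:34527475-34527724 (Lipa), all on the minus strand. Capitals mark 3 motifs. One is the core promoter element written TATAAA. Another is CCAAT, the box of that name. The last, in Abca1, is a direct repeat of the type bound by nuclear receptors (searched as GGTTANNNNNGGTCA, letters that were chosen after the Abca1 promoter had been read). Both strands were searched.
Abca1: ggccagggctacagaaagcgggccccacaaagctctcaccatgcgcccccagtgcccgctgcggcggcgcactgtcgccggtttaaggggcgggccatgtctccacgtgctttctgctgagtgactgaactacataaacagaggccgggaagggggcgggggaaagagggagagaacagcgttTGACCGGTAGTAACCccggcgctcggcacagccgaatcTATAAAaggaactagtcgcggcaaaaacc
Plin2: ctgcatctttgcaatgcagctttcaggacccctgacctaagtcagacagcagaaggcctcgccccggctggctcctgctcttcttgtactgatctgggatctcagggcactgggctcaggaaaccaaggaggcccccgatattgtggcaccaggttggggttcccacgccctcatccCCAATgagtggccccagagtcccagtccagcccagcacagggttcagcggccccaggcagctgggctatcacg
Lipa: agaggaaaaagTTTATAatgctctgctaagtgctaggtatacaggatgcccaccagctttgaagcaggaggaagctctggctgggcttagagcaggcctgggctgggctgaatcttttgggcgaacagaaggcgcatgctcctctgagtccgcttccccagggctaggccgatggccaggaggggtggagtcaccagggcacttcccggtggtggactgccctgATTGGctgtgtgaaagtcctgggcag

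In Abca1, the direct repeat lay at positions -67 to -53 from the start and the TATAAA element at -29 to -24. A direct repeat of these letters was in 0.0457% of the 32851 RefSeq promoters of the same length that were searched, and TATAAA in 12.4%. Plin2 had a CCAAT box at -73 to -69, and Lipa had one on the other strand at -26 to -22 together with TATAAA on the other strand far upstream, at -239 to -234. CCAAT was in 33.8% of these promoters. The E box core of lysosomal genes (TCACGTG), found in 3.13% of the promoters, had no match in the windows of Lipa, Npc2, Plin2, Abca1, Soat1, Cd36 and Apoe. A direct repeat of the same type searched with other letters, found in 0.0791% of the promoters, had no match in these windows either. The letters of the Abca1 repeat were taken from that promoter, so their share of promoters cannot show how unusual its match is. These matches describe letters only. Promoters of Msr1, Scarb1 and Abcg1 are not shown.

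After filtering, 23346 cells with 49509045 UMIs remained of the NCD library, and 19625 cells with 52044785 UMIs of the HFHC pool. KCs numbered 2711 (NCD library) and 391 (pool), C1q macrophages 87 and 85, monocytes 447 and 628, endothelial cells 2559 and 640, and hepatocytes 3679 and 9292. The upper limit of 4000 genes per cell removed far more cells of the pool, since 68 and 814 cells lay above it. By their own markers 10 and 296 of these were like KCs, so KC values of the pool leave out many gene-rich cells. The libraries shared 756 cell barcodes, which were kept apart by library. Cells of the pool were deeper in every one of these classes, with a median of 4527 UMIs against 9950 in KCs and of 759 against 1105 in hepatocytes. All 12 of a class's own markers were above 100 CPM, except in the NCD library in C1q macrophages (9 of 12) and monocytes (10 of 12). Clusters were named from these markers, so that the counts do not test the names. The C1q macrophages still held KC markers, at a summed level of 6037 CPM on NCD and 4464 CPM in the pool. C1q genes do not separate these 2 classes, since the C1q macrophage markers summed to 19374 and 16729 CPM in KCs and to 18091 and 14576 CPM in C1q macrophages, whose cluster was led by Ms4a7, Cx3cr1 and Trem2. The names stand for cells like these types. A level is the UMIs of a gene summed over the cells of a class, per 1000000 UMIs of the class (CPM), with an exact 95% Poisson interval that covers counting error only. Levels were compared between classes and libraries for the same gene, never between genes. Genes were 2-fold apart between the libraries when their ratio of CPM, with 1 UMI added, was at least 2 either way, and all 10 genes had the 100 UMIs asked of both libraries together in every class.

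Cd36, a receptor for fatty acids and oxidized lipoproteins (chr5:17781690-17888801, minus strand), was highest in endothelium in both libraries. Its level there was 1169 CPM in the NCD library (1142 to 1197) and 1754 CPM in the pool (1713 to 1796), 3.36-fold and 3.29-fold over KCs, the next class. KCs held 348 and 533 CPM, and hepatocytes were lowest at 17.4 and 37.5 CPM. Between these, the order of monocytes and C1q macrophages differed between the libraries. Monocytes held 203 CPM in the NCD library and 103 CPM in the pool, whereas C1q macrophages held 70.3 and 255 CPM. The difference in C1q macrophages rests on 22 and 188 UMIs.

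Msr1, the class A scavenger receptor (chr8:39581685-39642673, minus strand), was highest in KCs, at 813 CPM in the NCD library and 710.2 CPM in the pool. C1q macrophages came next at 543 and 517 CPM, then endothelium at 417 and 308 CPM and monocytes at 297 and 299 CPM. The intervals of endothelium and monocytes overlapped in the pool and not in the NCD library. Hepatocytes held 19.4 and 7.69 CPM, close to the 10.9 and 5.91 CPM of B cells. Msr1 was among the genes with the smallest differences between libraries in the 3 myeloid classes, with log2 ratios from -0.19 to 0.01.

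Scarb1, which encodes the HDL receptor SR-BI (chr5:125277087-125341094, minus strand), was highest in KCs, at 337 CPM in the NCD library and 290 CPM in the pool. It was the 1 receptor lower in endothelium of the pool beyond 1.5-fold, at 199 against 129 CPM (1.54-fold lower). Neighbouring classes in the middle of the order were close: in the NCD library the intervals of endothelium (188 to 211 CPM) and monocytes (148 to 189 CPM) overlapped, as did those of monocytes and C1q macrophages. Hepatocytes, in which SR-BI takes up HDL cholesterol, held 49.6 and 62.7 CPM, the lowest of the 5 classes.

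**Figure D1:**
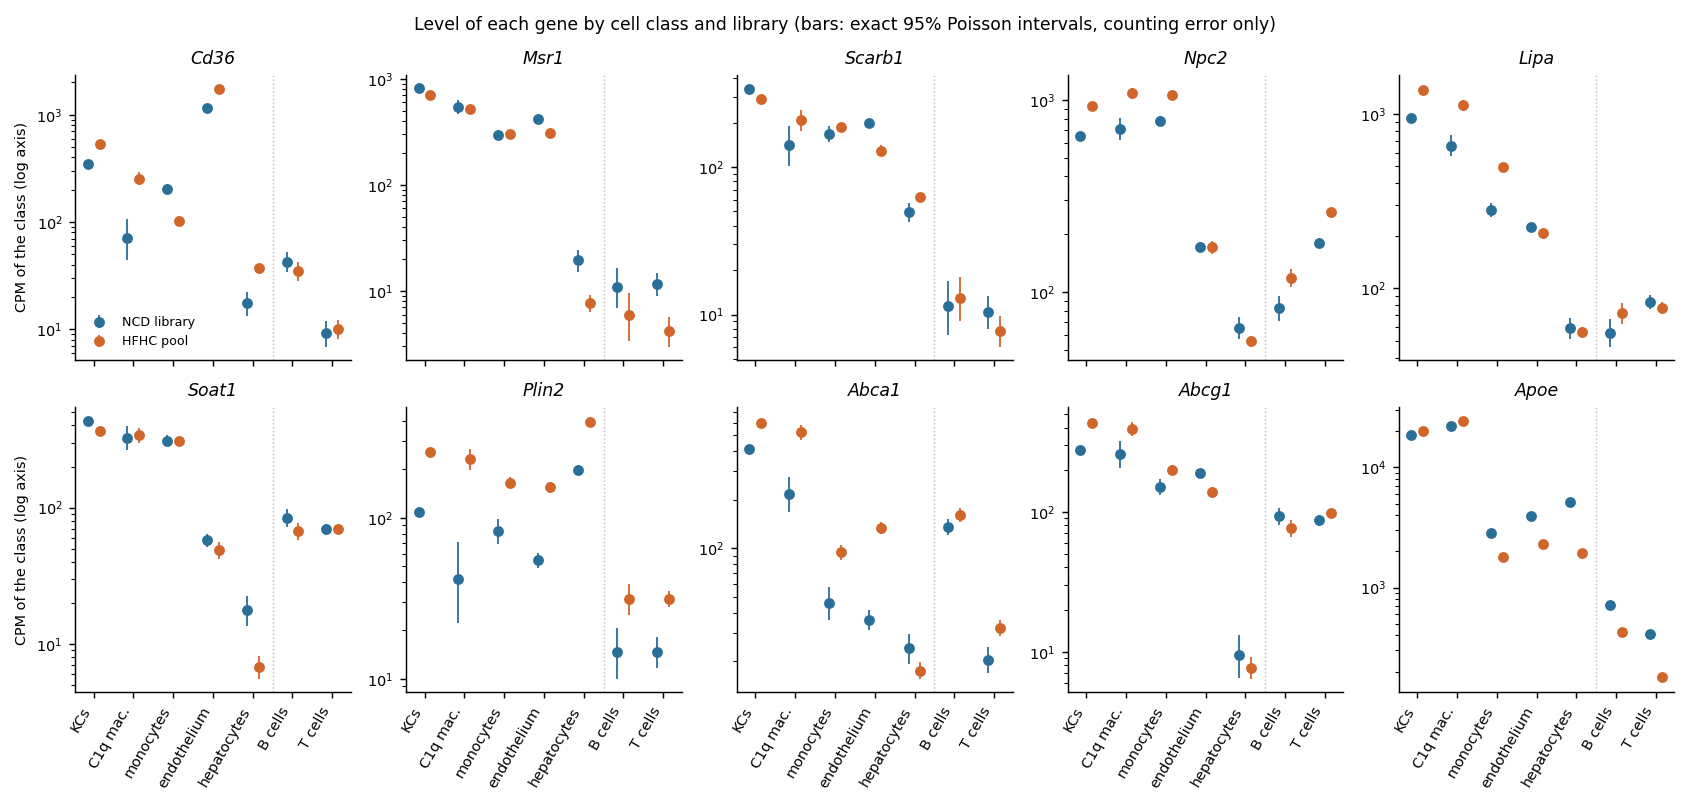
Level of each of the 10 genes (CPM of the class, log axis, a scale of its own per panel) in 5 classes and, right of the dotted line, in B cells and T cells, for the NCD library (blue) and the HFHC pool (orange), with exact 95% Poisson intervals. Cd36 peaks in endothelium, Plin2 in hepatocytes and Apoe in C1q macrophages and KCs, and the orange points of Plin2 lie above the blue ones in all 7 classes.

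Of the lysosomal genes, Lipa, which encodes lysosomal acid lipase (chr19:34492318-34527474, minus strand), was highest in KCs. Its level there was 948 CPM (931 to 964) in the NCD library and 1377 CPM (1338 to 1416) in the pool. C1q macrophages held 658 and 1119 CPM and monocytes 281 and 496 CPM, so that the pool was 1.45-fold, 1.69-fold and 1.76-fold higher in the 3 myeloid classes. In monocytes this difference was not beyond counting error in every cluster, as given below. Endothelium (225 and 207 CPM) and hepatocytes (59.0 and 56.0 CPM) differed less, and their intervals overlapped between libraries. Npc2, the soluble cholesterol carrier of the lysosome (chr12:84754562-84773152, minus strand), was likewise higher in the 3 myeloid classes of the pool. It held 781 and 1055 CPM in monocytes, 706 and 1083 CPM in C1q macrophages and 652 and 929 CPM in KCs, against 172 and 171 CPM in endothelium. Within the NCD library the intervals of monocytes and C1q macrophages overlapped, as did those of C1q macrophages and KCs. In the pool monocytes were 1.14-fold above KCs, beyond their intervals. Npc2 was not specific to these cells, since T cells held 180 and 262 CPM.

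Soat1, which makes cholesteryl esters (chr1:156424525-156474331, minus strand), was highest in the 3 myeloid classes. KCs held 429 CPM in the NCD library and 364 CPM in the pool, C1q macrophages 326 and 339 CPM, and monocytes 310.5 and 309.7 CPM. Between the libraries the last 2 classes differed by less than their intervals. Endothelium (57.7 and 48.7 CPM) and hepatocytes (17.7 and 6.77 CPM) lay below B cells, which held 84.6 and 67.2 CPM. Plin2, the droplet coat protein (chr4:86648386-86670060, minus strand), had another order, with hepatocytes highest at 198 and 396 CPM. KCs held 109 and 256 CPM, C1q macrophages 41.5 and 232 CPM, monocytes 82.6 and 166 CPM and endothelium 54.5 and 155 CPM. Each of the 5 classes was higher in the pool, with intervals apart between the libraries. C1q macrophages were lowest of the 5 classes in the NCD library, with 13 UMIs and an interval that overlapped that of endothelium. In the pool, with 171 UMIs, they lay below hepatocytes, and their interval overlapped that of KCs.

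Of the efflux genes, Abca1 (chr4:53030787-53159895, minus strand), the transporter that loads lipid-poor apolipoproteins, was highest in KCs, at 410.4 CPM in the NCD library and 598 CPM in the pool. C1q macrophages held 217 and 521 CPM, and their interval overlapped that of KCs in the pool and not in the NCD library. Monocytes (45.7 and 94.5 CPM) and endothelium (36.1 and 134 CPM) were lower, and hepatocytes held 24.1 and 17.6 CPM. B cells held more Abca1 than monocytes or endothelium, at 136 and 161 CPM, whereas T cells held 20.5 and 32.3 CPM. Abcg1, which passes cholesterol to HDL (chr17:31057675-31117988, plus strand), was alike in KCs (277 and 432 CPM) and C1q macrophages (259 and 391 CPM), with overlapping intervals in both libraries. Monocytes held 150.2 and 200.1 CPM and endothelium 188 and 139 CPM, so that their order turned between the libraries. Apoe (chr7:19696109-19699188, minus strand) was highest in C1q macrophages, at 22223 and 24489 CPM, and in KCs, at 18588 and 20024 CPM. The other classes lay well below, with hepatocytes at 5143 and 1924 CPM, endothelium at 3955 and 2292 CPM and monocytes at 2866 and 1814 CPM. Apoe was also counted in B cells (716 and 424 CPM) and T cells (412 and 182 CPM), cells that should lack it.

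Between the libraries, KCs of the pool had 1 of the 10 genes at least 2-fold higher and 0 lower, whereas 3.62% of all 8888 genes compared in KCs were at least 2-fold higher, 3.87% lower and 7.49% either way. The gene was Plin2, with a log2 ratio of 1.23 (counting interval 1.104 to 1.345), a 2.34-fold higher level in the pool. Another 5 genes were higher by less than 2-fold: Abcg1 (1.56-fold), Cd36 (1.53-fold), Abca1 (1.46-fold), Lipa (1.45-fold) and Npc2 (1.42-fold). Their log2 ratios stood at percentiles 88.1 (Npc2) to 91.9 (Abcg1) of the genes compared. Their counting intervals lay above 0, as did that of Apoe, and the share of all genes with such intervals was not counted. Apoe was 1.08-fold higher, and Msr1, Scarb1 and Soat1 were 1.14-fold to 1.18-fold lower. The median log2 ratio of the 10 genes was 0.52, beside -0.02 over all genes.

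C1q macrophages had 3 of the 10 genes at least 2-fold higher in the pool and 0 lower, beside 5.66% higher, 4.56% lower and 10.2% either way of 1820 genes. Plin2 was 5.21-fold higher (log2 2.38, 1.67 to 3.42), Cd36 3.48-fold higher (1.80, 1.22 to 2.57) and Abca1 2.37-fold higher (1.25, 0.89 to 1.66). Lipa, Npc2, Abcg1 and Scarb1 followed at 1.46-fold to 1.69-fold. Msr1 (-0.08), Soat1 (0.05) and Apoe (0.14) had the smallest log2 ratios. The median log2 ratio of the 10 genes was 0.60, beside -0.03 over all genes. With 87 and 85 cells in a single cluster, this class has the fewest UMIs of the 5. Plin2, Cd36 and Abca1, with 13, 22 and 68 UMIs in the NCD library, reached the UMI minimum only through the pool, as did Scarb1 and Abcg1.

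Monocytes had 1 of the 10 genes at least 2-fold higher in the pool and 0 lower, beside 3.08% higher, 2.73% lower and 5.81% either way of 6159 genes. It was Abca1, at 2.05-fold (log2 1.03, 0.68 to 1.43). With 73 and 370 UMIs, Abca1 reached the UMI minimum only through the pool. Its log2 ratio was 0.03 when the 10 genes and the genes of the route were kept in the clustering. Plin2 (1.99-fold higher) and Cd36 (1.98-fold lower) lay just inside the limit. Lipa was 1.76-fold higher, and its log2 ratio was 0.23 in place of 0.82 when those genes were kept in the clustering. Apoe was 1.58-fold lower (log2 -0.66), beside log2 ratios of -0.75 in B cells and -1.18 in T cells. The part of other cells' Apoe UMIs in the monocyte ratio was not tested. The median of the 10 genes was 0.28, beside -0.00044 over all genes.

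Endothelium had 2 of the 10 genes at least 2-fold higher in the pool and 0 lower, beside 9.92% higher, 4.40% lower and 14.3% either way of 8777 genes. They were Abca1 at 3.71-fold (log2 1.89, 1.66 to 2.13) and Plin2 at 2.84-fold (1.51, 1.31 to 1.71). Cd36 was higher, with a log2 ratio of 0.59, whereas Apoe (1.73-fold), Scarb1 (1.54-fold), Abcg1 (1.35-fold) and Msr1 (1.35-fold) were lower. For Apoe the log2 ratio was -0.79, beside -0.75 in B cells and -1.18 in T cells. The part of other cells' Apoe UMIs in the endothelial ratio was not tested. Abca1 and Abcg1, which act in the same route, thus had ratios of opposite sign in endothelium. The median of the 10 genes was -0.18, beside -0.02 over all genes. UMIs of the 12 hepatocyte markers also differed here, at 0.197% of endothelial UMIs on NCD and 0.779% in the pool. Without the cells that held 1% or more of such UMIs, which left 2434 and 468 cells, the log2 ratio of Abca1 was 2.07 and that of Plin2 1.29.

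Hepatocytes had 1 of the 10 genes at least 2-fold higher in the pool and 3 lower, beside 6.77% higher, 7.72% lower and 14.5% either way of 8897 genes. The median log2 ratio over all genes was 0.14 in this class, and ratios relative to it are given second. Apoe was 2.67-fold lower (log2 -1.42, relative -1.56), Soat1 2.63-fold lower (-1.40, relative -1.54) and Msr1 2.53-fold lower (-1.34, relative -1.48). Cd36 was 2.12-fold higher (1.08, relative 0.94, which is under 2-fold), and Plin2 was 1.997-fold higher, just short of the limit (0.998, relative 0.86). With 63 and 570 UMIs, Cd36 reached the UMI minimum only through the pool. The 12 KC markers summed to 559.6 and 239 CPM in hepatocytes, lower in the pool as well, and the C1q macrophage markers to 402 and 143 CPM, with Gpnmb and Mmp12 at 0 in the NCD library. The part of such UMIs in the 3 lower ratios was not tested. B cells held less than hepatocytes of Apoe, Plin2 and Scarb1 in both libraries, whereas their intervals for Msr1 overlapped in both. For Apoe, B cells and T cells were lower in the pool too, with log2 ratios of -0.75 and -1.18. Its ratio was -1.91 in type 1 dendritic cells and -1.55 in plasmacytoid dendritic cells, both lower than in hepatocytes. In NK cells and ILC1 it was -0.94, and in neutrophils -0.71. For Msr1 the ratios were -0.85 in B cells, from 23 and 16 UMIs, and -1.46 in T cells. Soat1 lay below the level in B cells in both libraries, and Cd36 lay below it in the NCD library and close to it in the pool, at 37.5 against 34.7 CPM.

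**Figure D2:**
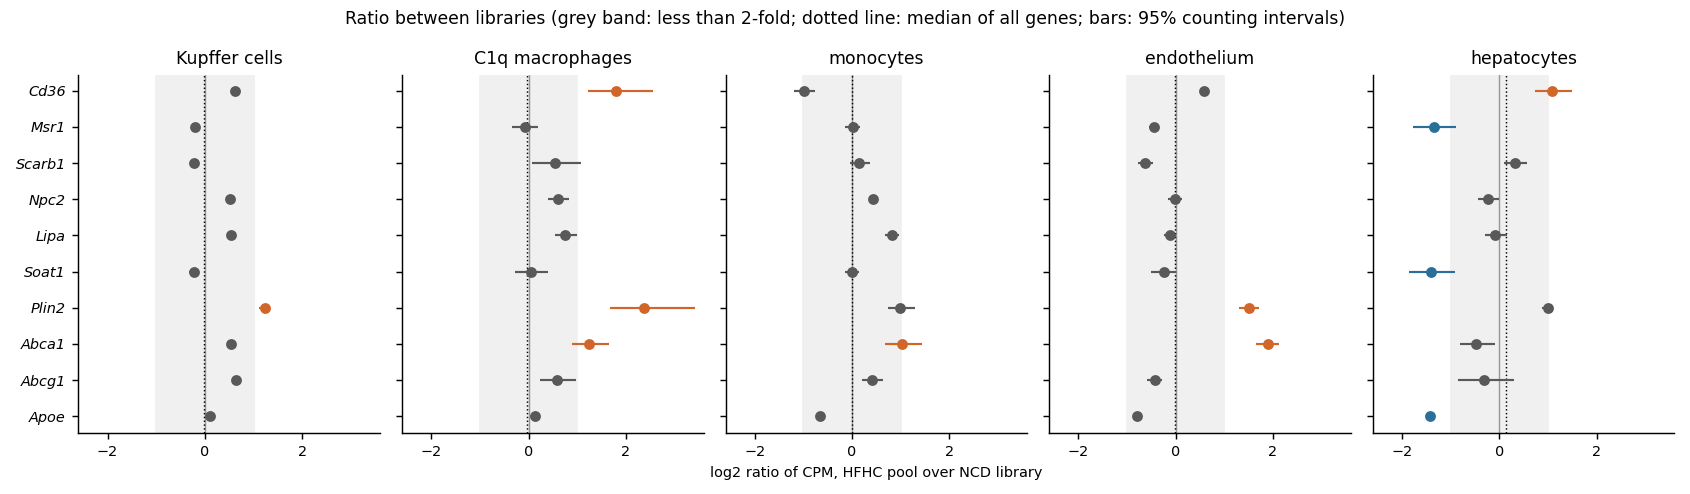
Log2 ratio of CPM, HFHC pool over NCD library, of the 10 genes in each of 5 classes, with 95% counting intervals. The grey band holds ratios under 2-fold and the dotted line is the median of all genes compared in the class, with orange points at least 2-fold higher and blue points at least 2-fold lower in the pool. Plin2 lies at 0.99 or above in all 5 classes, and Apoe runs from 0.14 in C1q macrophages to -1.42 in hepatocytes.

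Across the 5 classes, Plin2 was higher in the pool in 5 of 5 and at least 2-fold in 3, and Abca1 was higher in 4 of 5 and at least 2-fold in 3. Plin2 was also 2.10-fold higher in B cells, from 14.7 to 31.4 CPM, and 2.12-fold higher in T cells, from 14.7 to 31.3 CPM. Those levels were below that of each of the 5 classes of the same library. With the level in B cells subtracted, its log2 ratio was 1.24 in KCs, 2.74 in C1q macrophages, 0.97 in monocytes, 1.63 in endothelium and 0.99 in hepatocytes. Abca1 differed in B cells by 0.24 and in T cells by 0.65 on the log2 scale. Outside the 5 classes, Abca1 was also at least 2-fold higher in neutrophils (3.35-fold, 19.2 and 63.9 CPM, from 73 and 55 UMIs). In NK cells and ILC1 it was 2.10-fold higher (27.5 and 59.6 CPM). That ratio rests on 28 and 127 UMIs, so that the UMI minimum was reached only through the pool. The 10 genes did not share 1 direction. Cd36 ran from -0.99 in monocytes to 1.80 in C1q macrophages. Npc2 was higher in KCs of the pool. In hepatocytes it held 65.1 and 55.6 CPM, with Poisson intervals that overlapped, below the 82.7 and 119 CPM of B cells. Apoe was lower in hepatocytes, and in KCs its sign depended on the upper limit of genes per cell. Without that limit the KC log2 ratio was -0.25 for Apoe and 1.01 for Cd36.

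Within the clusters of a class, ratios were taken without the added UMI. Plin2 was higher in the pool in each of the 4 KC clusters with enough UMIs, by log2 1.06 to 1.42, and in each of the 3 monocyte clusters, by 0.88 to 1.19. Cd36 was higher in all 4 KC clusters (0.57 to 1.08) and lower in all 3 monocyte clusters (-1.40 to -0.43), with overlapping intervals in 1 cluster of each class. The monocyte level of Cd36 was highest in the cluster led by Ace, a gene of non-classical monocytes, which held 881 and 581 CPM against 54.3 and 20.6 CPM in the cluster led by F13a1. On NCD the Ace cluster held 65.2% of the monocyte Cd36 UMIs. In the pool it held 46.8%, and the cluster led by Ly6i held 46.0%. That cluster led by Ace made up 22.1% of NCD monocytes and 11.6% of those in the pool. Abca1 was higher in the pool in 1 of the 3 monocyte clusters, the one led by Ly6i, at 39.6 and 142 CPM, where Lipa also had its largest monocyte ratio, at 327 and 655 CPM. In the cluster led by F13a1 Abca1 held 37.2 and 25.6 CPM and in that led by Ace 87.3 and 77.3 CPM, with overlapping intervals. Lipa held 243 and 273 CPM in the F13a1 cluster and 266 and 386 CPM in the Ace cluster, also with overlapping intervals. The Ly6i cluster, which also carried markers of C1q macrophages, held 33.3% of NCD monocytes and 50.3% of those in the pool. It held 83.5% of the monocyte Abca1 UMIs and 73.7% of the monocyte Lipa UMIs of the pool. With this cluster counted among C1q macrophages, the other monocytes had a log2 ratio of -0.51 for Abca1 and -1.52 for Apoe. Cd36 in C1q macrophages had a log2 ratio of 0.34 in place of 1.80 when the cluster was counted there.

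**Figure D3:**
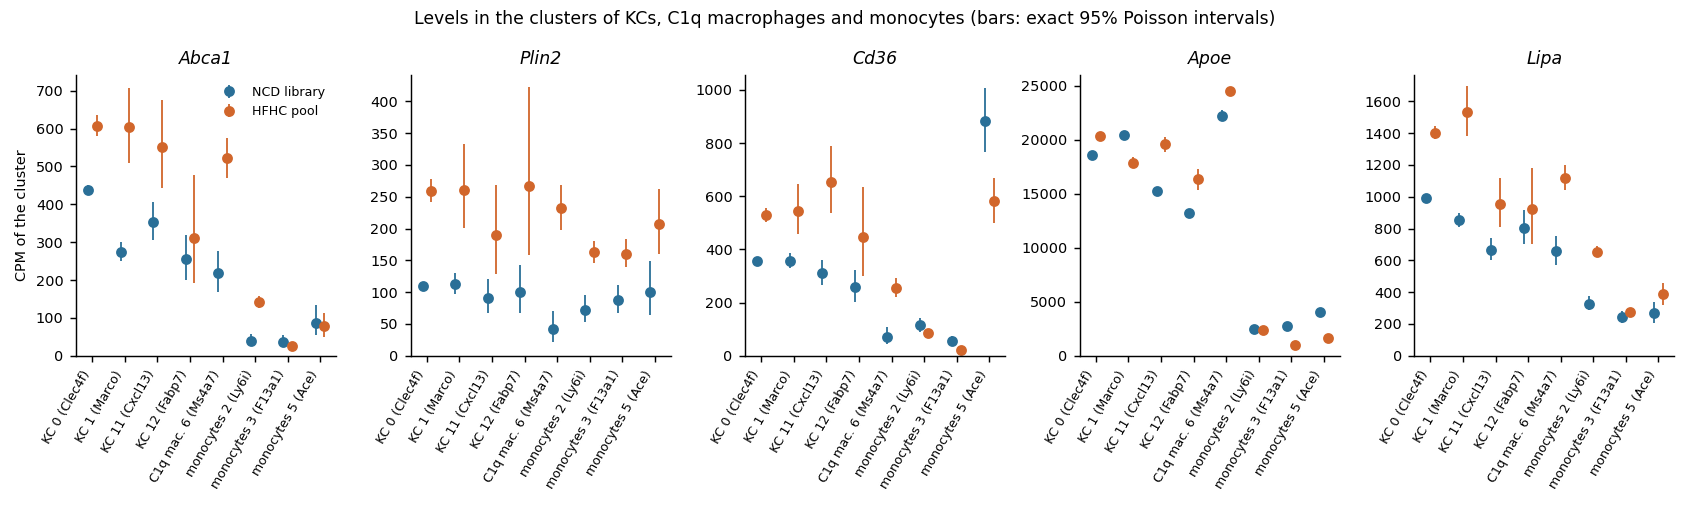
Levels (CPM of the cluster) of Abca1, Plin2, Cd36, Apoe and Lipa in 4 KC clusters, the C1q macrophage cluster and 3 monocyte clusters, each named by its number and a leading gene, with exact 95% Poisson intervals. The KC cluster of 110 and 6 cells is not drawn. Plin2 is higher in the pool in all 8 clusters, whereas among monocytes Abca1 is higher in the Ly6i cluster and Cd36 is highest in the Ace cluster.

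In KCs, Abca1 was 437 and 608 CPM in the largest, led by Clec4f, and 275 and 603 CPM in the larger of the 2 led by Marco (667 and 49 cells). Lipa was 991 and 1402 CPM in the first and 852 and 1532 CPM in the second. Apoe was higher in the pool in 3 of the 4 clusters and lower in this larger Marco cluster, at 20447 and 17881 CPM. In both endothelial clusters Cd36, Plin2 and Abca1 were higher and Apoe, Scarb1, Abcg1 and Msr1 lower in the pool. Abca1 was 37.3 and 178 CPM in the cluster led by Ptprb and 33.9 and 85.4 CPM in that led by Aqp1. The hepatocyte markers were higher in the Aqp1 cluster of the pool, at 1.22% of UMIs, than in the Ptprb cluster, at 0.376%.

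Hepatocytes of the libraries sat mostly in different clusters, so that class ratios also compare clusters. Of 3679 NCD hepatocytes, 2644 were in the cluster led by Mup20, whereas 2168, 2196 and 2082 of the 9292 hepatocytes of the pool were in the clusters led by Cps1, Rgn and Serpina1e. Within clusters Apoe was lower in the pool in 5 of 5, from 5239 to 2867 CPM in the Mup20 cluster and from 6551 to 4615 CPM in the Mup17 cluster, and log2 ratios ran from -1.26 to -0.35. The ratio of -0.35, in the Rgn cluster, rests on 38 UMIs in the NCD library, with overlapping intervals. Plin2 was higher in 4 of 4 clusters with enough UMIs, by 0.17 to 1.01, for instance from 182 to 367 CPM in the Mup20 cluster. The ratio of 0.17, in the Serpina1e cluster, rests on 11 UMIs in the NCD library, with overlapping intervals. The Mup17 cluster, whose leading genes include Glul and Cyp1a2 of pericentral hepatocytes, held 30.7 and 93.8 CPM of Cd36, beside 16.1 and 31.2 CPM in the Mup20 cluster, with overlapping intervals between these clusters in the NCD library. It held 25.4% and 46.1% of the hepatocyte Cd36 UMIs. Lipa was higher in the pool in the Mup20 and Mup17 clusters (59.9 and 85.6 CPM, 57.5 and 101 CPM), although not over the whole class. A further 3381 and 136 shallow cells and 7 and 3106 shallow cells, in clusters led by hepatocyte genes, stayed unnamed.

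**Figure D4:**
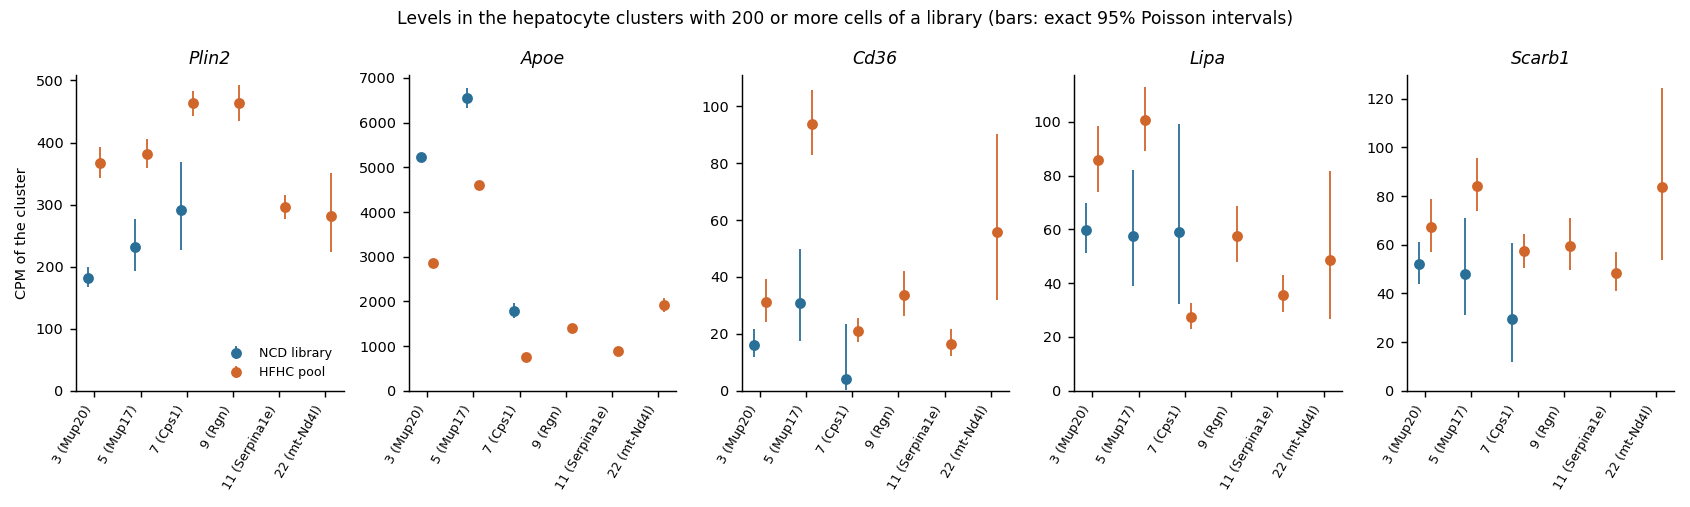
Levels (CPM of the cluster) of Plin2, Apoe, Cd36, Lipa and Scarb1 in the hepatocyte clusters, named by number and a leading gene, with exact 95% Poisson intervals, where a library had 200 or more cells in the cluster. Apoe is lower and Plin2 higher in the pool in each of the 3 clusters that both libraries fill.

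To compare shares of cells at matched depth, each cell was thinned to 500 UMIs, which left out 57 KCs, 74 endothelial cells and 921 hepatocytes of the NCD library and 0, 3 and 1372 of the pool as too shallow. At that depth Cd36 was counted in 34.6% (95% binomial interval 32.7 to 36.5%) of endothelial cells of the NCD library and in 48.4% (44.4 to 52.3%) of the pool, against 1.55% and 0.352% of B cells. Unthinned endothelial cells, with a median of 2031 and 5673.5 UMIs, held Cd36 in 66.0% and 90.8%, and unthinned B cells, with a median of 1332.5 and 2645 UMIs, in 4.79% and 6.69%. Plin2 was counted in 5.73% and 11.3% of KCs, 3.10% and 7.69% of endothelial cells and 9.43% and 16.6% of hepatocytes, beside 0.282% and 1.41% of B cells. Abca1 was counted in 1.61% (1.15 to 2.19%) and 6.59% (4.79 to 8.81%) of endothelial cells, beside 1.01% and 1.32% of T cells and 7.42% and 8.92% of B cells. Apoe was counted in 99.5% and 99.0% of KCs, and in 83.9% and 47.1% of hepatocytes beside 26.1% and 15.3% of B cells. For Msr1, Soat1 and Abcg1 the shares of hepatocytes were under 1% in both libraries and are read as background. In C1q macrophages the share with Plin2 was 2.30% (0.280 to 8.06%) and 11.8% (5.79 to 20.6%), so that the intervals overlapped, and for Abca1, with 14.9% (8.20 to 24.2%) and 16.5% (9.31 to 26.1%), no difference was detectable at this depth and number of cells. Without thinning, Plin2 was counted in 38.4% and 74.4% of KCs, against 2.04% and 7.28% of B cells, and Abca1 in 7.27% and 40.2% of endothelial cells, against 16.4% and 31.6% of B cells.

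**Figure D5:**
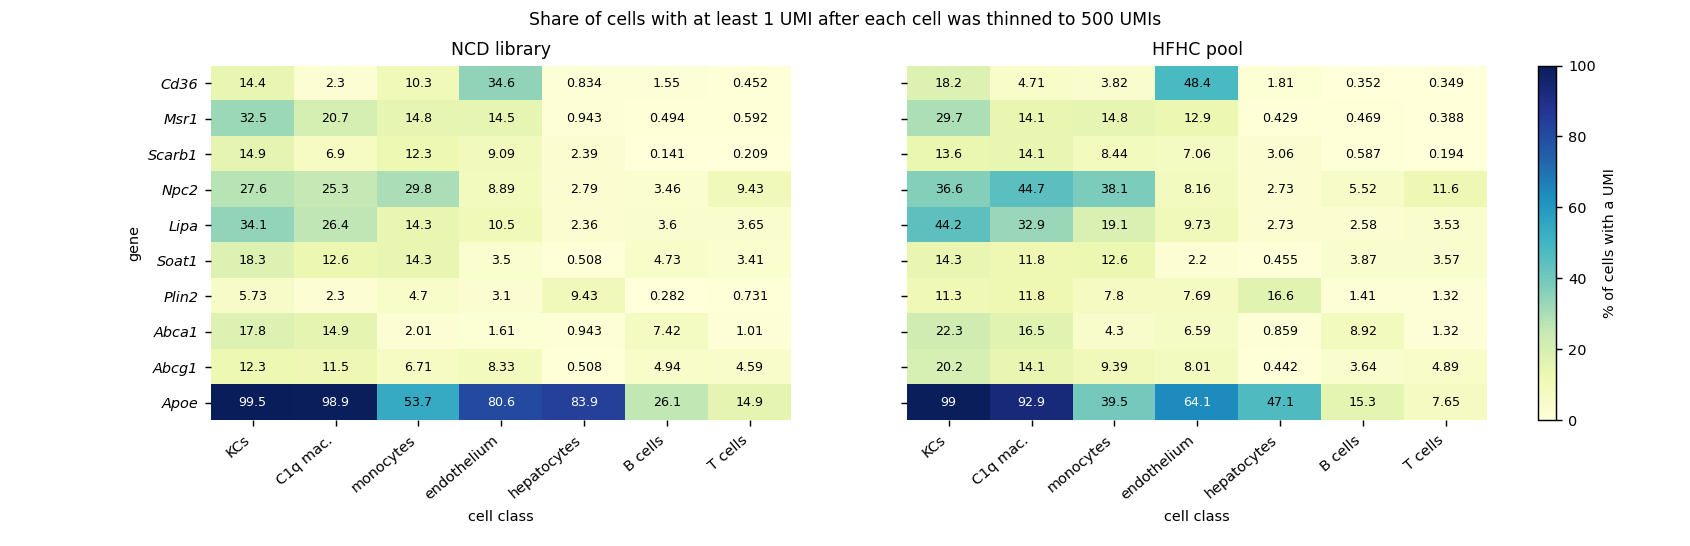
Share of cells with at least 1 UMI of each gene after each cell was thinned to 500 UMIs, by cell class, for the NCD library (left) and the HFHC pool (right). Colour and printed value give the percentage. B cells and T cells are shown for comparison and are not background for every gene, since B cells held more Abca1 than endothelium. The highest share of Cd36 is in endothelium and that of Plin2 in hepatocytes, and Apoe exceeds 90% in KCs and C1q macrophages of both libraries.

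The wider route was described with 72 further genes in 4 lists of 18. These lists were written with earlier results of these data known. A share above that of all genes may therefore be built into them and is not a test of the route. In KCs 53 of the 72 had enough UMIs, and 4 were at least 2-fold higher and 3 lower in the pool, 13.2% beside 7.49% of all genes. C1q macrophages had 6 higher and 1 lower of 26 (26.9% beside 10.2%), and monocytes 6 and 1 of 44 (15.9% beside 5.81%). Endothelium had 8 and 1 of 49 (18.4% beside 14.3%), and hepatocytes 4 and 8 of 54 (22.2% beside 14.5%). Of the uptake list, Fabp5, a fatty acid carrier of macrophages, was higher in all 3 myeloid classes. It held 6.97 and 48.2 CPM in KCs, 65.1 and 208 CPM in monocytes, and 9.59 CPM (3 UMIs) against 241 CPM in C1q macrophages. Lpl, the lipase that frees fatty acids from lipoproteins, was 396 and 1895 CPM in C1q macrophages. In that class 3 of the 5 uptake genes with enough UMIs were at least 2-fold higher, beside 5.66% of all genes. Fabp5, 1 of the 3, reached the UMI minimum only through the pool, so that this count is partly set by the minimum. Gpihbp1, which anchors that lipase on capillary endothelium, was lower in KCs (16.9 and 3.92 CPM) and hepatocytes (29.1 and 6.97 CPM) of the pool, and so were the fatty acid transporter Slc27a4 in KCs (18.2 and 8.68 CPM) and the scavenger receptor Stab1 in hepatocytes (24.4 and 9.60 CPM). Gpihbp1 and Stab1 were higher in endothelium (2481 and 1443 CPM, 1653 and 1108 CPM), and the 12 endothelial markers also summed lower in the pool, at 1006 and 865 CPM in KCs and 301 and 146 CPM in hepatocytes. The part of endothelial UMIs in these ratios was not tested. In endothelium, Acsl1, which activates fatty acids, was 25.8 and 90.8 CPM. The part of hepatocyte UMIs in the Acsl1 ratio was not tested. Fabp1 (270.0 and 2131 CPM), Apoa1 (112 and 413 CPM), Apoc1 (182 and 1178 CPM) and Cideb (11.5 and 54.4 CPM) were also higher in endothelium of the pool. These 4 are known as genes of hepatocytes, Apoa1 being 1 of the 12 markers, whose marker UMIs were higher there as well, and the part of this in their ratios was not tested.

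In the efflux list, Rxra, the partner of LXR, was lower in the pool in all 3 myeloid classes, at 359 and 145 CPM in KCs, 166 and 79.9 CPM in C1q macrophages and 48.2 and 20.2 CPM in monocytes. Pltp, which remodels HDL and is a target of LXR, was 543 and 1136 CPM in C1q macrophages. Mylip, a ubiquitin ligase gene and a target of LXR, was 33.2 and 69.5 CPM in monocytes. The sterol transporters Abcg5 and Abcg8, which act as a pair, were both higher in hepatocytes of the pool, at 13.6 and 45.8 CPM and 14.7 and 36.8 CPM. The median log2 ratio of the efflux list was 0.37 in KCs and -0.32 in hepatocytes, beside -0.02 and 0.14 over all genes.

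Of the lysosomal list, the protease Ctsd and the hexosaminidase subunit Hexa were at least 2-fold higher in all 3 myeloid classes. Ctsd held 188 and 1097 CPM in KCs, 102 and 719 CPM in C1q macrophages and 31.3 and 199 CPM in monocytes, and Hexa held 189.99 and 583 CPM, 173 and 586 CPM, and 90.8 and 319 CPM. The list as a whole had a median log2 ratio of 0.20 in KCs and 0.31 in monocytes, beside -0.02 and -0.00044 over all genes. At least 2-fold higher were 3 of its 18 genes in KCs and 4 of 17 in monocytes, beside 3.62% and 3.08% of all genes. In hepatocytes its median was -0.50, beside 0.14 over all genes, with 1 gene higher and 4 lower of 16, beside 6.77% and 7.72% of all genes. The 1 higher was Tfeb, a transcription factor of lysosomal genes, at 1.94 CPM (7 UMIs) and 6.38 CPM (97 UMIs), and the lowest ratios were those of the lysosomal membrane protein Scarb2 (69.5 and 27.4 CPM) and the sterol carrier Stard3 (10.5 and 4.08 CPM). Of the storage list, Cidec, a droplet protein of steatotic hepatocytes, was 1.11 CPM (4 UMIs) and 15.1 CPM (229 UMIs) in hepatocytes, and Dgat2, the last enzyme of triglyceride synthesis, was 195 and 69.6 CPM. No gene of the storage list was 2-fold apart in KCs, C1q macrophages or monocytes, where 7, 1 and 5 of its 18 genes had enough UMIs.

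Over 15 cell classes in both libraries, 30 points in all that share libraries and depth, the levels of the 10 genes were compared with each other and with 13212 genes, as log2(CPM + 10). Pearson's r between the 45 pairs of the 10 genes ran from 0.05 (Plin2 and Abcg1) to 0.87 (Msr1 and Lipa), with a median of 0.56. The genes most like Msr1 were Tmem106a (r = 0.95) and Mertk, a receptor for apoptotic cells (0.93). Lipa was most like Mfsd1 and Acp2 (0.91 each), both lysosomal genes, and Npc2 was most like Tep1 (0.90) and Psap, the precursor of the saposins (0.86). Cd36 was most like Fcgrt (0.92), Abcg1 like Plekho2 (0.92), Apoe like Hpgd (0.90), Soat1 like Adam17 (0.90) and Scarb1 like Cmtm3 (0.88). Plin2 was most like Ftl1-ps1 and Ftl1, a ferritin chain and its pseudogene copy, which may share reads (0.85 each), and Abca1 like Rasgef1b (0.82).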

How the data were processed

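Cells were counted with the BD Rhapsody WTA Analysis Pipeline 1.10.1 on GRCm38 with GENCODE M19, per the submitters' processing notes and the file headers. The deposited values are UMI counts per cell (error-corrected by the authors' pipeline), whole numbers with no normalization, 1 table per library, and all of their columns of genes were usable (0 columns of other samples). The other sample of the series, a library of sample tags, was not analysed here.

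Cells with 200 to 4000 genes and at most 25% mitochondrial UMIs were kept. In R 4.3.3 with Seurat 5.3.0 and sctransform 0.4.2, each library was normalized with mitochondrial share regressed out, and the libraries were integrated by reciprocal PCA over 3968 variable genes, without the 10 genes and the 72 further genes of the route. Clusters used 30 components, 20 neighbours, resolution 0.8 and seed 42, and myeloid cells were clustered again at 0.5. Clusters were named from marker lists when the score was at least 1 and 3 or more markers were in at least 10% of cells. Clusters with another type's markers (score of 2 or more) were set aside as mixed, 663 and 138 cells (NCD library and HFHC pool), and 3410 and 3264 cells stayed unnamed. These thresholds were set after the clusters were seen. Scrublet (scanpy 1.11.5) called 8.13% and 1.95% of cells doublets. They were removed only in an alternative.

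UMIs were summed per class and library and divided by the class total (CPM), with exact 95% Poisson intervals from scipy 1.17.1. The log2 ratio, with 1 UMI added, was formed for genes with 100 or more UMIs in both libraries together, and was tested on simulated counts. Binomial intervals are exact (Clopper-Pearson). No test was run, since each diet had 1 library and cells are not replicates. Genes named beside the 10 were, of each of the 4 lists in each class, the 2 highest and the 2 lowest by log2 ratio among those at least 2-fold apart with enough UMIs, and for each of the 10 the 2 genes closest by Pearson's r. Gene positions are from GENCODE vM21 on GRCm38. The genes, lists and alternatives were chosen with earlier results of these data known. Alternatives changed the scaling, the UMI minimum, the cell limits, the doublets, the way classes were formed, the depth and the background, and 2 were added after the data were seen. The values of 1 gene of the uptake list are not reported here, although the counts over that list include it.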

Additional observations from a re-analysis of the deposited data

How the results depend on the processing

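No paired analysis was possible because each diet had 1 library. Of the 11 differences of at least 2-fold among the 10 genes, 5 stayed past 2-fold in each alternative that gave a value: Plin2 in KCs, C1q macrophages and endothelium, and Abca1 in C1q macrophages and endothelium. Of the 11, 10 kept their sign. Abca1 in monocytes reversed to -0.51 on the log2 scale when the intermediate cluster was counted as C1q macrophages, and was 0.03 with the 10 genes kept in the clustering, in which no C1q class formed. Cd36 in C1q macrophages fell short of 2-fold with classes from each cell's own markers (0.50) and with the intermediate cluster counted there (0.34). In hepatocytes, Cd36 fell short when scaled by the median gene ratio (0.94) and with unnamed clusters counted as hepatocytes (0.92), Msr1 (-0.78) and Soat1 (-0.97) when cells were weighted equally, and Apoe (-0.69) with classes from own markers. The number of the 10 genes past 2-fold became 2 in place of 1 in KCs with no upper limit on genes per cell, 1 in place of 3 in C1q macrophages thinned to 1000 UMIs (Lipa, at 1.16, since Cd36, Plin2 and Abca1 had too few UMIs), and 1 in place of 2 in endothelium with the level in B cells subtracted, where Abca1 has no value. In monocytes it became 2 in place of 1 with no upper limit, both higher. It was also 2 with own markers, cells weighted equally or B cells subtracted, 1 higher and 1 lower. The higher one was Abcg1 with B cells subtracted. With the 10 genes in the clustering or the intermediate cluster moved, the 2 were Cd36 and Apoe, both lower, and Abca1 was no longer past 2-fold. It became 3 with at most 10% mitochondrial UMIs or without called doublets, 2 higher and 1 lower. In hepatocytes it became 1 in place of 4 with own markers, 2 when thinned or with B cells subtracted, 3 with median scaling, equal cell weights or unnamed clusters added, and 5 with no upper limit or the 10 genes in the clustering. With the level in B cells subtracted, the share of all genes past 2-fold was 25.7% in monocytes, 36.2% in endothelium and 31.6% in hepatocytes. With a minimum of 20 UMIs, genes of the 4 lists past 2-fold numbered 13 in place of 7 in C1q macrophages. They numbered 11 in place of 7 in monocytes and 15 in place of 9 in endothelium. More genes were then compared, and the share of all genes past 2-fold rose as well. It was 13.7% in place of 10.2% in C1q macrophages, 9.76% in place of 5.81% in monocytes and 18.7% in place of 14.3% in endothelium. Apart from that minimum, the cause of these changes was not tested. The 13 UMIs of Plin2 and 22 UMIs of Cd36 in NCD C1q macrophages limit those ratios.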
